A study of Mus musculus with 11 samples.

Results

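The mitochondrial genome-encoded transcripts are the genes of the small circular chromosome inside mitochondria. They were chosen as all rows of the count tables whose Ensembl identifier maps to a symbol that starts with mt-, which gave 37 of 48709 rows: 13 protein-coding genes, 2 ribosomal RNA (rRNA) genes and 22 transfer RNA (tRNA) genes. Primary hippocampal neurons were prepared from embryos of CD1 mice at embryonic day 17, from hippocampi pooled over several embryos. On day 10 in vitro, 6 control samples received lipid nanoparticles with a negative control oligonucleotide and 5 mimic samples received lipid nanoparticles that carried a mimic of miR-181a-5p, a microRNA abundant in brain. Per the paper's methods, ApoE4 was added along with both kinds of nanoparticle. RNA was taken after 48 hours, on day 12 in vitro, and messenger RNA selected by its poly(A) tail was sequenced as single 50-base reads. The comparison asks which transcripts differ once the level of this microRNA is raised. The samples are cultures of embryonic neurons with some other cells among them, and no untreated sample is used here. No source states that samples within a group came from separate preparations, so p-values measure the spread between these samples.

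Mitochondrial DNA is transcribed from both strands into long precursor RNAs that carry many genes each. The tRNAs lie between the other genes, and cutting them out of the precursor releases the messenger RNAs (mRNAs) and the rRNAs, most of which then receive short poly(A) tails. The proteins made from these mRNAs are core subunits of respiratory complexes I, III and IV and of ATP synthase, which neurons need for most of their energy supply. All other subunits, and the enzymes that copy, transcribe and process the mitochondrial genome, are encoded in the nucleus.

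In these cultures the mitochondrial genes held about 3% of all counts, and of the 20 that could be tested, 0 differed between mimic and control samples by the test used. These 20 of the 37 genes passed the filter on low counts (5 or more counts in 6 or more samples): 7 protein-coding, both rRNA and 11 tRNA genes. Total counts ranged from 17287168 to 48091231 per sample, control 1 having the most. The sequences of the oligonucleotides come first, because a microRNA acts through pairing of its seed, bases 2 to 8 from the 5′ end, with a target RNA. The mimic carried the mature RefSeq sequence of mmu-miR-181a-5p. The seeds are in capitals.
miR-181a-5p mimic: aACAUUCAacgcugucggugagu
negative control oligonucleotide: uCACCGGGuguaaaucagcuug

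The complements of the mimic's seed, GAATGT (bases 2 to 7) and TGAATGT (bases 2 to 8), were searched on the sense strand of the 37 genes alone and occurred in 0 of them. For reference, the central 784 bases of 20500 nuclear protein-coding transcripts held GAATGT in 20.2% of cases and TGAATGT, which contains it, in 7.85%. The complement of bases 2 to 7 of the control oligonucleotide, CCGGTG, occurred in 2 mitochondrial genes, against 7.47% of the same nuclear stretches. The longer complement of bases 2 to 8, CCCGGTG, occurred in none. The tRNA genes are only 59 to 75 bases long, so counts over the 37 genes and these percentages are not on the same scale. Both CCGGTG matches are shown with their neighbouring bases in the GRCm38 build, plus strand, with the match in capitals.
mt-Rnr1, bases 64 to 69, chrM:133-138: cctccatagaCCGGTGtaaaatccc
mt-Co1, bases 947 to 952, chrM:6274-6279: gcaattcctaCCGGTGtcaaagtat
These matches describe the letters alone, and no binding was measured. The plus-strand mitochondrial mRNAs are poor in G, which made up 11.5% of their bases against 28.1% in mt-Nd6, the single mRNA encoded on the minus strand.

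The mitochondrial genes that were counted fell into separate blocks of the chromosome. A run of 11 neighbouring genes, from mt-Ts1 to mt-Nd4l (chrM:6870-10173, GRCm38), held 1 count in all 11 samples together. It contains 6 protein-coding genes: mt-Co2 and mt-Co3, which encode core subunits of cytochrome c oxidase, mt-Atp6 and mt-Atp8, which encode membrane subunits of ATP synthase, and mt-Nd3 and mt-Nd4l, which encode subunits of complex I. Of these, 5 were at 0 in every sample. The exception was mt-Co3, with 1 count in mimic 1. The remaining 5 genes of the run are tRNA genes, all at 0. At these depths, 3 counts correspond to 0.0624 to 0.174 CPM (counts per 1000000 counts) in a sample, so a level below that limit cannot be told from 0. This limit covers counting error only.

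Genes on both sides of the run were among the most abundant of the whole table. Over all samples, mt-Co1, which lies directly before it, had 2209184 counts, and mt-Nd4, directly after it, had 586196. The position of the run coincides with a stretch that also exists in the nucleus. The GENCODE annotation lists 7 pseudogenes on chromosome 1 (chr1:24611535-24616197, minus strand, GRCm38), a span of 4663 bases, and they correspond in order to chrM:6381-11042, a span of 4662 bases from within mt-Co1 to within mt-Nd4. Along their full annotated length, 5 of the 7 pseudogenes had 0 differences from their mitochondrial counterpart: Gm28661 (681 bases, mt-Co2), Gm10925 (678 bases, mt-Atp6), Gm28437 (783 bases, mt-Co3), Gm10222 (294 bases, mt-Nd4l) and Gm28439 (876 bases, mt-Nd4). Gm29216 differed from mt-Co1 at 6 of 492 bases. Gm28438 differed from mt-Nd3 at 1 of 345 bases, T3C, counted from 1 at the first base of mt-Nd3 with the mitochondrial base written first. The first 30 bases of an identical pair and of the pair that differs are shown, the differing base in capitals.
mt-Co2 and Gm28661: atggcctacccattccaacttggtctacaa
mt-Nd3: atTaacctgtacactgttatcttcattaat
Gm28438: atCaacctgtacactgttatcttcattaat

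A 50-base read that matches several places equally well cannot be assigned by its sequence. To measure this, every 50-base window of each mitochondrial gene was searched on both strands in the other annotated transcripts. The share of windows found elsewhere was 100% for mt-Co2, 99.9% for mt-Co3, 99.5% for mt-Atp6, 98.8% for mt-Nd4l and 98.0% for mt-Nd3, the 5 longest mRNAs without a usable count. It was 62.2% for mt-Nd4 and 51.1% for mt-Co1, 8.19% for mt-Nd2, 7.61% for mt-Nd5 and 0% for mt-Nd1, mt-Nd6 and mt-Cytb. Missing counts did not always go with shared windows. The tRNA genes of the run (mt-Ts1, mt-Td, mt-Tk, mt-Tg and mt-Tr) had 0% of windows shared and no count. So did mt-Tw, mt-Ty and mt-Th outside it. Among the protein-coding genes mt-Atp8 was an exception, with 0% of windows shared and no count. Its position corresponds to a gap of 233 bases between the annotated pseudogenes (chr1:24614652-24614884), a stretch that was not searched because transcripts, not the genome, were available. How the counting treated reads with several matches is not given in the sources used here, and the part of these copies in the low counts was not tested.

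**Figure D1:**
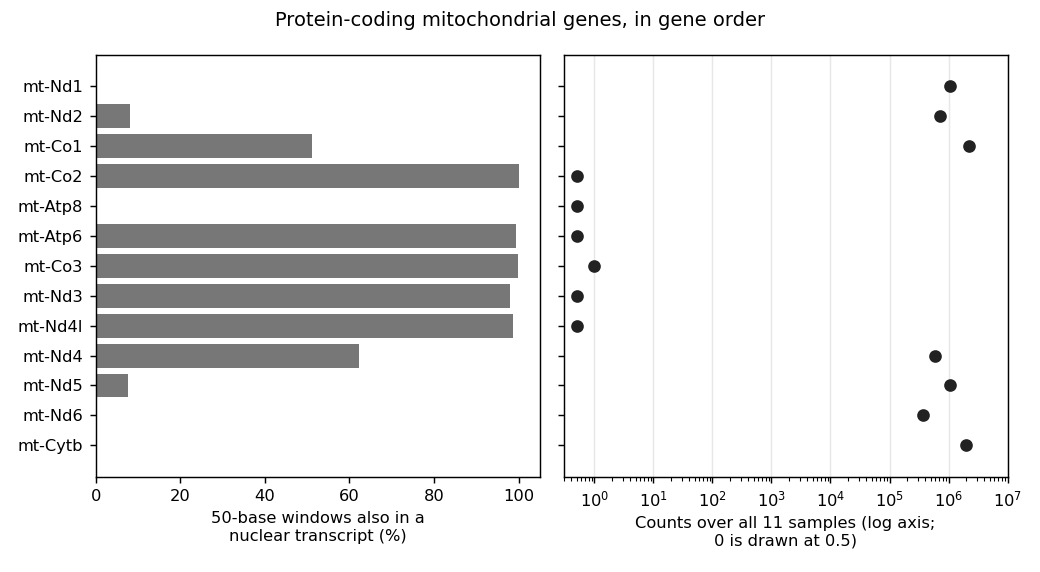
Share of 50-base windows of each mitochondrial protein-coding gene that also occur in another annotated transcript (left, in percent) and counts summed over all 11 samples (right, log axis, 0 drawn at 0.5), genes in the order of the chromosome. The 5 genes with at least 98.0% of windows shared have at most 1 count, while mt-Co1 at 51.1% and mt-Nd4 at 62.2% have 2209184 and 586196 counts; mt-Atp8 has no shared window and no count.

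The pseudogenes themselves were counted at low levels. Gm28438, the copy of mt-Nd3 with the single differing base, had 60 to 195 counts per sample, and the other 6 copies on chromosome 1 had 5 to 21 counts together. Gm28438 had a mean of 4.10 ± 0.606 CPM (SD, n = 6) in the controls and 4.69 ± 1.92 CPM (n = 5) with the mimic, and the groups overlapped (log2 fold change 0.17, SE 0.241, adjusted p = 0.824 by edgeR's quasi-likelihood test). Gm13340, a copy on chromosome 2 that shares windows with mt-Co1, stood at 2.21 ± 0.248 and 2.28 ± 0.147 CPM (log2 fold change 0.04, adjusted p = 0.934). Both were chosen after their values were seen.

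Together the 37 mitochondrial genes took 3.26% ± 0.108 (SD, n = 6) of all counts in control and 3.24% ± 0.180 (n = 5) in mimic samples. The control samples ranged from 3.20% to 3.48% with a median of 3.22%. The mimic samples were at 3.39%, 3.19%, 3.13%, 3.03% and 3.46% for mimic 1 to 5. The groups overlapped, with mimic 1 and mimic 5 above all controls but control 2, and mimic 2, 3 and 4 below all controls. Almost all of these counts came from mRNAs, at 2.92% ± 0.101 of all counts in control samples. The 2 rRNA genes held 0.332% ± 0.0260 and the tRNA genes 0.0104% ± 0.00107. For comparison, loci linked to nuclear ribosomal RNA moved strongly in the same samples, from 0.166% to 0.365% of counts in control samples and from 0.0345% to 0.112% in mimic samples.

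**Figure D2:**
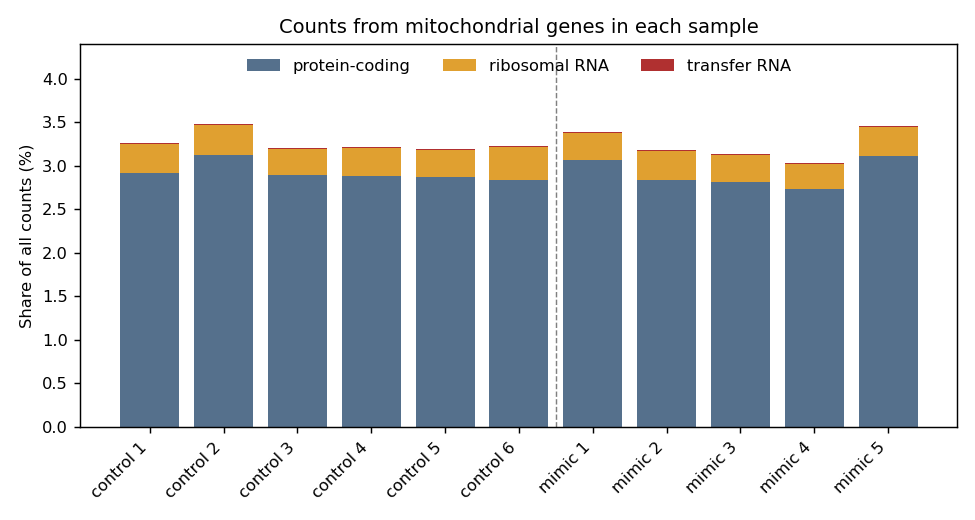
Share of all counts (percent) from mitochondrial genes in the 6 control and 5 mimic samples, stacked by protein-coding, rRNA and tRNA genes; the tRNA layer is a thin line at the top. Totals run from 3.03% in mimic 4 to 3.48% in control 2, and the groups overlap.

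Two-sided tests were made for all 17365 genes that passed the filter, with edgeR's quasi-likelihood test and Benjamini-Hochberg adjustment. Of the 20 mitochondrial genes tested, 0 were lower and 0 higher in mimic samples at an adjusted p under 0.05, where 1.77% of all genes tested were lower and 1.08% higher. At an unadjusted p under 0.05 the count was also 0 of 20, against 15.7% of all genes tested, and it was 1 without control 3, without mimic 1 or with the replicate numbers as a block. DESeq2 and limma called 0 at an adjusted p under 0.05 as well. The smallest unadjusted p was 0.112, for mt-Rnr2, with an adjusted p of 0.470. In none of the 20 were the groups fully apart, against 1.73% of all genes with every mimic sample below every control sample and 1.16% with the reverse. Estimates lay below 0 for 14 of the 20, with a median log2 fold change of -0.03, beside 50.1% below 0 and a median of -0.0001 over all genes. Without control 2 or without mimic 4 the count below 0 was 9, and without mimic 5 it was 19, so it rests on single samples. A share or a CPM value in a bulk sample cannot tell fewer cells of a type from less RNA per cell.

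The 2 rRNA genes encode the RNAs of the small (mt-Rnr1) and large (mt-Rnr2) subunits of the mitochondrial ribosome, and are seen here only as far as they were carried through poly(A) selection. mt-Rnr2 (ENSMUSG00000064339, chrM:1094-2675) ranged from 1830 to 2201 CPM in control samples with a median of 1977, and stood at 1912, 1979, 1816, 1704 and 1979 CPM in mimic 1 to 5. Its log2 fold change was -0.09 (SE 0.0538, 95% interval -0.21 to 0.03). mt-Rnr1 (ENSMUSG00000064337, chrM:70-1024) ranged from 1214 to 1544 CPM with a median of 1308 in control samples, and stood at 1261, 1315, 1298, 1179 and 1317 CPM in mimic samples. Both rRNAs were highest in control 6, and mimic 4 was the lowest sample for both. The log2 fold change of mt-Rnr1 was -0.07 (SE 0.0583, 95% interval -0.20 to 0.06, adjusted p = 0.661 by edgeR), and -0.02 without control 6. The ratio of mt-Rnr2 to mt-Rnr1 counts was 1.5 ± 0.0375 in control and 1.47 ± 0.0501 in mimic samples, with overlap.

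Complex I, NADH dehydrogenase, is the entry point of electrons from NADH into the respiratory chain, and the largest group of mitochondrial mRNAs encodes it. mt-Nd1 (chrM:2751-3707) ranged from 3785 to 4251 CPM in control samples with a median of 3841, and stood at 4000, 3838, 3599, 3333 and 4082 CPM in mimic 1 to 5. mt-Nd2 (chrM:3914-4951) ranged from 2473 to 2988 CPM with a median of 2570, and stood at 2906, 2469, 2389, 2177 and 3047 CPM. mt-Nd5 (chrM:11742-13565) ranged from 3649 to 4198 CPM with a median of 3845, and stood at 4198, 3529, 3491, 3627 and 4336 CPM. In all 3 the mimic samples enclosed most of the control range, and mimic 1 and mimic 5 were the highest of the mimic samples. mt-Nd4 (chrM:10167-11544) was steadier, from 2106 to 2281 CPM with a median of 2152 in control samples and at 2216, 2070, 2098, 2117 and 2240 CPM in mimic samples. mt-Nd6 (chrM:13552-14070, minus strand) ranged from 1294 to 1554 CPM with a median of 1394, against 1508, 1257, 1257, 1215 and 1514 CPM. The library kit does not mark the strand, so reads of mt-Nd6 and of the RNA opposite to it cannot be told apart. Its end also overlaps that of mt-Nd5 (chrM:13552-13565), as mt-Nd4l overlaps mt-Nd4, and reads there may have been left out or split by the counting. The log2 fold changes of the 5 complex I genes lay between -0.06 (mt-Nd1) and -0.01 (mt-Nd4), and their 95% intervals all reached no lower than -0.23 and no higher than 0.18, the bounds for mt-Nd2.

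Complexes III and IV are each represented by a single counted mRNA. mt-Cytb (ENSMUSG00000064370, chrM:14145-15288), which encodes cytochrome b of complex III, ranged from 6950 to 7624 CPM in control samples with a median of 7153. The mimic samples stood at 7490, 7054, 7106, 6960 and 7525 CPM. Its log2 fold change was 0.01 (SE 0.0247, 95% interval -0.05 to 0.06, adjusted p = 0.954 by edgeR), which bounds a difference between 0.969-fold and 1.04-fold. mt-Co1 (ENSMUSG00000064351, chrM:5328-6872), which encodes the catalytic subunit of cytochrome c oxidase, ranged from 8023 to 8416 CPM with a median of 8215. The mimic samples stood at 8404, 7915, 7956, 7634 and 8138 CPM, 4 of 5 below the control median and 3 below every control sample. Its log2 fold change was -0.03 (SE 0.0222, 95% interval -0.08 to 0.01, adjusted p = 0.508 by edgeR), or 0.946-fold to 1.01-fold. mt-Co1 had the smallest spread of the 20 genes among control samples, with a coefficient of variation of 1.68%.

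**Figure D3:**
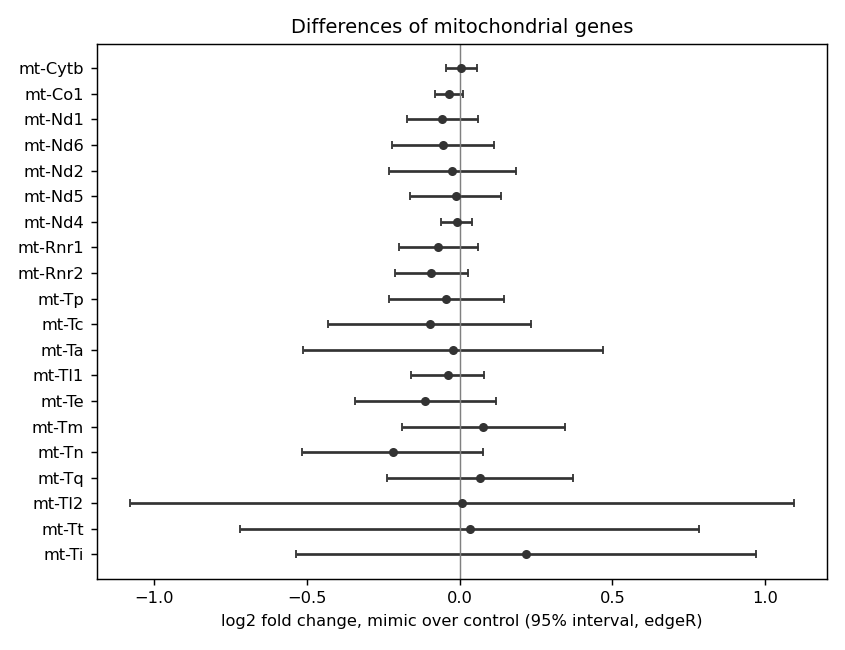
Log2 fold change of mimic over control for the 20 tested mitochondrial genes (edgeR estimate with 95% interval), ordered by level per length for the mRNAs and rRNAs and then for the tRNAs. Every interval crosses 0; those of mt-Co1, mt-Nd4 and mt-Cytb are narrow, and that of mt-Tl2 runs from -1.08 to 1.10.

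The tRNAs carry amino acids to the mitochondrial ribosome and, once cut out, are too short for the usual library, so their counts can include reads of uncut precursors. The 11 tested tRNA genes had log2 fold changes from -0.22 (mt-Tn, 95% interval -0.52 to 0.08) to 0.22 (mt-Ti, -0.54 to 0.97). Of these, 6 lay below 0 and 5 above. The most abundant was mt-Tp, the proline tRNA, at 34.9 to 47.3 CPM in control samples and 37.5, 38.5, 35.2, 33.3 and 43.1 CPM in mimic 1 to 5. Next came mt-Tc, for cysteine, at 20.95 to 26.81 CPM and 25.4, 22.7, 19.9, 14.5 and 27.4 CPM. mt-Ta, for alanine, was at 12.5 to 21.5 CPM and 18.0, 16.3, 12.6, 9.40 and 22.0 CPM. mt-Tl1, a leucine tRNA directly after mt-Rnr2, was at 13.2 to 15.8 CPM and 15.8, 13.9, 12.7, 14.3 and 13.5 CPM. Mimic 4 was the lowest of all samples for mt-Tp, mt-Tc and mt-Ta, but not for mt-Tl1. These 4 genes held 88.6% ± 0.465 of tRNA counts in control samples. The log2 fold changes were -0.04 for mt-Tp, -0.10 for mt-Tc, -0.02 for mt-Ta and -0.04 for mt-Tl1, and the groups overlapped in each.

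The other tested tRNA genes were mt-Ti, mt-Tq, mt-Tm, mt-Tn, mt-Tl2, mt-Te and mt-Tt, each with 2 to 177 counts per sample. Their precision differed widely, with a coefficient of variation among control samples from 10.3% for mt-Tm to 66.9% for mt-Tt. The remaining 11 tRNA genes did not pass the filter: 8 were at 0 in every sample and 3 had 0 to 10 counts per sample. tRNA genes on the minus strand held 82.2% ± 0.749 of tRNA counts in control and 81.5% ± 2.25 in mimic samples. These genes lie opposite to the longer plus-strand precursor, so with this kit their reads cannot be told from reads of that precursor.

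Counts were also compared within the mitochondrial genes, which removes the total of each sample. mt-Co1 held 25.0% ± 0.508 of mitochondrial counts in control samples, mt-Cytb 21.9% ± 0.209, mt-Nd1 11.9% ± 0.177, mt-Nd5 11.8% ± 0.303 and mt-Nd2 8.04% ± 0.309. mt-Nd4 held 6.59% ± 0.0835, mt-Rnr2 6.10% ± 0.394, mt-Nd6 4.27% ± 0.182 and mt-Rnr1 4.07% ± 0.366. The order of these shares says which genes supplied the counts and not which RNA was more abundant, since longer genes collect more reads. mt-Cytb took 22.0%, 22.4%, 22.9%, 23.2% and 21.9% in mimic 1 to 5, against 21.6% to 22.1% in control samples. Mimic 2, 3 and 4 were thus above every control sample for this share, while mimic 1 and 5 were within the control range. Complex I genes together held 42.6% ± 0.714 in control and 42.5% ± 1.39 in mimic samples, and rRNA genes 10.2% ± 0.758 and 9.80% ± 0.436. No gene's share separated the groups.

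For several genes the mimic samples spread more widely than the control samples in this composition. The ratio of mt-Nd2 to mt-Cytb counts was 0.356 to 0.392 in control samples, and 0.388, 0.350, 0.336, 0.313 and 0.405 in mimic 1 to 5. Its mean was 0.367 ± 0.0138 in control and 0.358 ± 0.0377 in mimic samples, so the SD was larger in the mimic group while the means were close. Control 2, mimic 1 and mimic 5 had the highest ratios and also the highest mitochondrial shares of all counts, and mimic 4 had the lowest of both. mt-Ta followed the same order at its ends, with 0.0615% of mitochondrial counts in control 2, 0.0642% in mimic 5 and 0.0313% in mimic 4. The ratio of mt-Cytb to mt-Co1 counts, by contrast, was 0.878 ± 0.0178 in control and 0.902 ± 0.0152 in mimic samples, and control 2, at 0.906, was the one control sample inside the mimic range of 0.891 to 0.925.

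**Figure D4:**
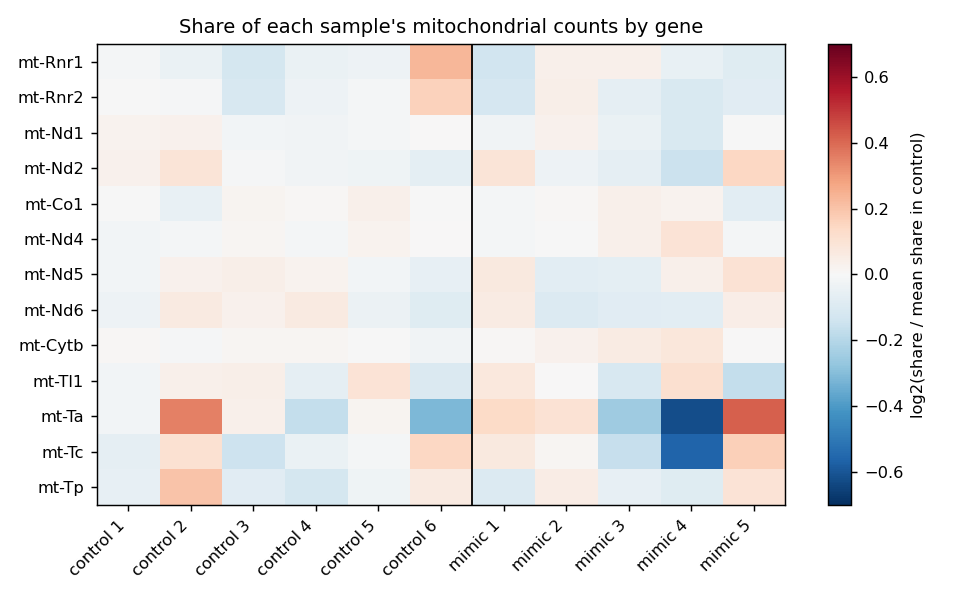
Share of each sample's mitochondrial counts taken by 13 genes, as log2 of the share over the mean share in control samples (red higher, blue lower; columns are samples, the line divides control from mimic). mt-Ta and mt-Tc are low in mimic 4, mt-Ta is high in control 2 and mimic 5, and both rRNAs are high in control 6; no row separates the groups.

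Levels can be compared between genes only per length. In control samples, CPM per kilobase of exon was 6294 ± 205 for mt-Cytb, 5309 ± 89.0 for mt-Co1, 4100 ± 185 for mt-Nd1, 2701 ± 174 for mt-Nd6, 2546 ± 180 for mt-Nd2 and 2122 ± 103 for mt-Nd5. It was 1570 ± 44.3 for mt-Nd4, 1401 ± 121 for mt-Rnr1 and 1266 ± 85.4 for mt-Rnr2. Neighbours in this order overlapped in control samples for mt-Nd6 and mt-Nd2, for mt-Nd4 and mt-Rnr1 and for the 2 rRNAs, and were apart otherwise. When the count was divided by the number of windows not found elsewhere, mt-Co1 moved to 11220 CPM per kilobase of unshared windows and came first, and mt-Nd4 moved to 4311, close to mt-Nd1 at 4321. mt-Cytb became second at 6575. Every count of the partly shared genes was then assumed to fall in unshared windows, a choice made after seeing the data. The place of mt-Co1 and mt-Nd4 in the order therefore depends on how shared sequence is treated. The place of mt-Nd6 is also uncertain, because without strand marks its count can include reads of the RNA opposite to it. The most abundant tRNA gene, mt-Tp, stood at 579 ± 66.6 CPM per kilobase.

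**Figure D5:**
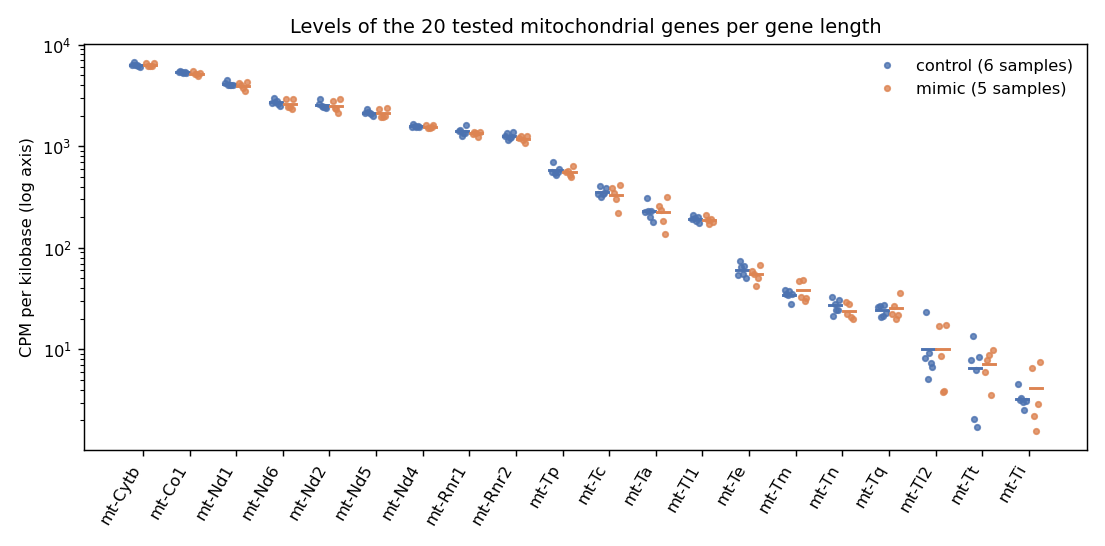
CPM per kilobase (log axis) of the 20 tested mitochondrial genes in 6 control (blue) and 5 mimic (orange) samples; points are samples and short lines are group means. Control means run from 6294 for mt-Cytb to 1266 for mt-Rnr2 among mRNAs and rRNAs, the tRNA genes lie below, and the groups overlap for every gene. The values of mt-Nd6 can include reads of the RNA opposite to it.

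By CPM in control samples, not corrected for length, mt-Co1, mt-Cytb, mt-Nd1 and mt-Nd5 ranked 1 to 4 of all 48709 genes, and all 9 counted mRNAs and rRNAs ranked within the first 46. Nuclear genes for subunits of the respiratory complexes were far lower per length than these 9 genes. For ATP synthase no comparison within the complex is possible, because mt-Atp6 and mt-Atp8 had no count. In complex IV, mt-Co2 and mt-Co3 had no usable count either. In control samples the median CPM per kilobase was 34.7 for 36 nuclear complex I subunits (highest Ndufa2, 95.5), 80.8 for 9 complex III subunits (highest Uqcr10, 136.5), 96.6 for 13 complex IV subunits (highest Cox8a, 279) and 45.3 for 18 ATP synthase subunits (highest Atp5a1, 314). Complex II, which has no mitochondrially encoded subunit, had a median of 62.9 over 4 genes. Exon length here is the union over all annotated transcripts, which lowers the value of nuclear genes with unused exons.

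The listed nuclear genes that serve the mitochondrial genome did not pass the test either. Over all genes tested, 1.77% were lower and 1.08% higher in mimic samples. At those shares a short list can hold 0 without differing from other genes. Polrmt, the RNA polymerase of mitochondria, averaged 27.8 ± 1.68 CPM in the controls and 27.7 ± 1.91 CPM with the mimic, with a log2 fold change of -0.01. Tfam, which packages mitochondrial DNA and starts its transcription, stood at 41.1 ± 1.65 and 41.0 ± 1.47 CPM (-0.0039). Tfb2m, the other initiation factor, was at 5.05 ± 0.354 and 4.70 ± 0.485 CPM (-0.10), and Tefm, the elongation factor, at 6.46 ± 0.329 and 6.54 ± 0.453 CPM (0.01). None of the 7 genes of the transcription list passed the test. Polg, the DNA polymerase, and Twnk, the helicase, were at 55.6 ± 2.01 and 17.9 ± 1.12 CPM in control samples, with log2 fold changes of 0.01 each, and 0 of 13 replication and nucleoid genes passed. Lrpprc and Slirp, partners that stabilise mitochondrial mRNAs, and Mtpap, the poly(A) polymerase, had log2 fold changes of 0.0035, 0.05 and 0.02. In the stability list 0 of 19 passed, and in the processing list 0 of 21. Ppargc1a, a regulator of mitochondrial biogenesis, had a log2 fold change of -0.01, and 0 of 10 in its list passed.

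The nuclear subunit lists gave the same count. At the shares called over all genes, 1.77% lower and 1.08% higher, lists this short can hold 0 without differing from other genes. Of 36 complex I, 4 complex II, 9 complex III, 13 complex IV and 18 ATP synthase genes tested, 0 passed in either direction. The medians of their log2 fold changes were 0.01, 0.01, 0.02, 0.02 and 0.02, beside -0.0001 over all genes and -0.03 over the 20 mitochondrial genes. In the same samples Lars2, which encodes the mitochondrial leucyl-tRNA synthetase and is also 1 of the 6 loci linked to nuclear rRNA, fell by 2.34 on the log2 scale (SE 0.339, adjusted p = 0.00904 by edgeR), and CT010467.1 fell by 2.08 (adjusted p = 0.0227). All 6 loci of that list, which was chosen with these results known, fell. Leaving them out of the totals changed the difference in mitochondrial share from -0.0251 to -0.0320 percentage points.

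Markers of cell types were read beside these values because mitochondrial content can differ between cell types. The 8 neuron markers were all detected and held 0.684% to 0.699% of counts in control and 0.669% to 0.678% in mimic samples. Slc17a7, the vesicular glutamate transporter of excitatory neurons, was the one that passed the test, lower by a log2 fold change of -0.14 (adjusted p = 0.0239 by edgeR). Markers of endothelial, mural and fibroblast cells held 0.0291% to 0.0433% in control and 0.0441% to 0.0585% in mimic samples, and 2 of 10 passed, Cdh5 higher (0.77, adjusted p = 0.00713) and Rgs5 lower (-0.66, adjusted p = 0.0227). Markers of dividing cells held 0.00779% to 0.00856% and 0.00912% to 0.0101%, and 2 of 8 passed, Top2a (0.38) and Cdk1 (0.38), both higher. Of 7 astrocyte, 7 oligodendrocyte lineage and 8 microglia markers, 0 passed. Over all genes tested, 1.77% were lower and 1.08% higher, so lists this short can hold 0 without differing from other genes. By direction alone, 9 of 10 endothelial, mural and fibroblast markers and 8 of 8 dividing cell markers lay above 0. Below 0 were 7 of 8 neuron, 5 of 7 astrocyte, 5 of 7 oligodendrocyte lineage and 5 of 8 microglia markers. The part of these shifts in the mitochondrial values was not tested.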

How the data were processed

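Raw counts per gene were deposited for each of the 11 samples, together with a table of normalized values. Per the labels and the study's methods, the authors checked reads with FastQC 0.11.5, aligned them with STAR 2.5.2b to mm10 and counted them with featureCounts of Subread 1.5.1. The annotation release and the settings for strand and for reads with several matches are not given in the sources used here. The deposited normalized signal of 16921 genes equals the count divided by 1 factor per sample (largest relative deviation 5.08e-10) and was used only in an alternative.

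Identifiers were matched to GENCODE M21 (48349 of 48709 rows). No row lacked a gene name. Genes with 5 or more counts in 6 or more samples were tested on all 11 samples with group as the only term. The test was edgeR 4.0.16 (TMM, robust quasi-likelihood, R 4.3.3), with Benjamini-Hochberg adjustment over all genes. It was checked on simulated data, with 100 genes changed 1.5-fold and 100 changed 2-fold. It recovered 100% of each, with 16 false calls among 17111 genes. Smaller changes were not simulated, so the check does not cover the small differences described here. CPM used TMM library sizes, and shares used plain totals. DESeq2 1.42.0, limma 3.58.1 on log2(value + 1), other scalings and filters, each sample left out, control 1 thinned and a minimum fold of 1.2 were alternatives. Windows of 50 bases were matched in GENCODE transcripts. No test was made on sums or lists. Members and lists were chosen with earlier results of these data known. The named genes were all members (tRNA genes below the filter as counts), 10 nuclear partners fixed by name and list genes called. Of the 6 called loci linked to nuclear rRNA, values are given for Lars2 and CT010467.1 alone. Gm23935, Gm15564, Mir6236 and Gm26917 were called lower as well.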

Additional observations from a re-analysis of the deposited data

Results flagged for a closer look

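Among 44 series of values per group checked for a sample apart from the rest (a gap to the nearest sample that is large against the range of the group), 4 were flagged, where chance gives about 2.2. The mitochondrial share of counts was highest in control 2, at 3.48% against 3.26% in the next sample, a gap of 0.768 of the range. The rRNA share of mitochondrial counts was highest in control 6, at 11.6% against 10.1%, a gap of 0.669 of the range. On the log2 CPM scale mt-Tm was lowest in control 5, at 0.95 against 1.26 (0.693 of the range), and mt-Nd4 was highest in control 2, at 11.16 against 11.08 (0.663 of the range). Without control 2 the difference in mitochondrial share was 0.0179 percentage points in place of -0.0251. Its sign also turned without mimic 3 (0.0015) and without mimic 4 (0.0277), and it was -0.0796 without mimic 5. Without control 6 the difference in rRNA share was -0.0833 in place of -0.373 percentage points.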

How the results depend on the processing

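The number of tested mitochondrial genes called was 0 in each of 23 alternative fits, and the smallest adjusted p of any was 0.253. The count over the 10 nuclear partner lists was also 0 in each. Replicate numbers did not pair samples: deviations correlated from -0.0532 to 0.0487 for same-numbered samples and from -0.122 to 0.117 for others. The replicate block fit called 328 genes in all, against 350 for the same samples without the block. It called 0 mitochondrial genes. Genes called in all ranged from 218 (without control 1) to 530 (DESeq2) against 495, and were 785 without a filter and 0 with a minimum fold of 1.2; they were 237 without mimic 2 and 278 without mimic 4. The median of the tested mitochondrial genes ran from -0.09 (without mimic 5) to 0.01 (without control 2) on the log2 scale.

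Directions were not stable for small differences: of 456 values of single mitochondrial genes under alternatives, 38 changed sign, 34 of them without 1 sample. mt-Tl2 went from 0.01 to -0.11 with the replicate block, -0.0667 on those samples without it, -0.0195 with control 1 thinned and -0.0703 with limma. Over fits without 1 sample, log2 fold changes ran from -0.10 to 0.41 for mt-Ti, -0.0815 to 0.14 for mt-Tq, -0.0108 to 0.16 for mt-Tm, -0.0864 to 0.0357 for mt-Nd2, -0.17 to 0.13 for mt-Ta, -0.19 to 0.0322 for mt-Tc, -0.0234 to 0.0117 for mt-Nd4, -0.27 to 0.39 for mt-Tl2, -0.0583 to 0.0243 for mt-Nd5, -0.0069 to 0.0290 for mt-Cytb, -0.12 to 0.29 for mt-Tt and -0.0945 to 0.0250 for mt-Tp. The lowest value of these came without mimic 5 for all but mt-Tm (mimic 3) and mt-Tt (control 3). The other tested mitochondrial genes kept their sign, with values from -0.0969 to -0.0204 for mt-Rnr1, -0.1180 to -0.0565 for mt-Rnr2, -0.0849 to -0.0125 for mt-Nd1, -0.0962 to -0.0152 for mt-Nd6, -0.0513 to -0.0139 for mt-Co1, -0.0792 to -0.0034 for mt-Tl1, -0.2938 to -0.1165 for mt-Tn and -0.1866 to -0.0387 for mt-Te; the smallest differences came without control 6 for mt-Rnr1, without mimic 4 for mt-Rnr2, mt-Nd1, mt-Nd6 and mt-Co1, without mimic 3 for mt-Tl1 and mt-Te and without control 1 for mt-Tn. The same ranges were -0.0271 to 0.0357 for Polrmt, -0.0222 to 0.0108 for Tfam, -0.0223 to 0.0516 for Tefm, -0.0105 to 0.0221 for Polg, -0.0190 to 0.0391 for Twnk, -0.0064 to 0.0352 for Lrpprc and -0.0265 to 0.0053 for Ppargc1a. Tfb2m, Slirp and Mtpap kept their sign in these fits, at -0.1498 to -0.0318, 0.0074 to 0.0805 and 0.0112 to 0.0651. With upper-quartile factors Polrmt was at 0.0035, Tfam at 0.0065 and Ppargc1a at 0.0039. Tfam was at 0.0010 with scaling on nuclear rows, 0.0037 with the replicate block, 0.0017 without it, 0.0067 with control 1 thinned and 0.0009 with limma, and Lrpprc was at -0.0010 without a filter. The causes were not tested.

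Precision differed widely between genes. The 95% interval of mt-Tl2, with 5 to 38 counts per sample, allows 0.473-fold to 2.14-fold, while that of mt-Co1 allows 0.946-fold to 1.01-fold. The interval of mt-Ti, with 2 to 15 counts per sample, was narrower than that of mt-Tl2, at 0.689-fold to 1.96-fold. The part of depth in these widths was not tested.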
